A study of Mus musculus with 26 samples.

Results

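The cytosolic ribosomal protein genes are 83 of the 55401 genes in the deposited table of liver read counts. They were chosen by name alone: the mapped symbol is Rpl or Rps with digits and at most a single-letter suffix, or is Rplp0, Rplp1, Rplp2 or Rpsa, and pseudogenes (symbols with -ps) and the Rps6k kinases were left out. Of these genes 51 carry large-subunit symbols and 32 small-subunit symbols. Livers of 8 mice given UCMSC-Exos, vesicles released by UCMSC cells, were compared with livers of 9 untreated mice, and all 17 came from male C57BL/6 mice that began a high-fat diet (HFD, which the design text describes as also high in cholesterol) at 4 weeks of age and stayed on it for 18 weeks. The UCMSC-Exos mice were injected through the tail vein every 72 hours for 8 weeks. The labels list no injections for the untreated HFD mice, so the vesicles, the injections and any cage or cohort difference cannot be told apart. The series holds 26 samples in 3 groups, and its 9 LSCR-treated livers were not analysed here. The labels call both groups MASLD mice and plan 9 mice in each. A further count column of the table could be tied to none of the samples and was left aside (1 column).

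A ribosome is built from ribosomal RNA and one copy each of most ribosomal proteins, so the genes for these proteins are expressed in every cell and at broadly matched levels. In mammals their mRNAs carry a start of unbroken pyrimidines, the 5′ terminal oligopyrimidine or TOP motif, through which mTORC1 and the RNA-binding protein LARP1 regulate above all their translation. The liver makes most plasma proteins, and its hepatocytes are rich in ribosomes.

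The start motif is the sequence feature that these genes are best known to share, and the naming rule did not use it. RefSeq start windows (assembly GRCm38.p6) were matched by symbol for 61 of the 83 genes, which had 73 annotated starts. Each line below gives 10 bases before the annotated start and 20 from it, 5′ to 3′ on the gene's own strand, with the run searched for in capitals: a C followed by at least 4 bases that are each C or T, read on the gene's strand only. Where several runs lay within 10 bases of the start, the one beginning closest to it is marked. Rpl7a is shown because it passed the test between the groups, and its run began 1 base before the annotated start, at the end of a longer pyrimidine stretch. Rps6, Rpl28, Rplp2, Rpl38 and Rps27 are shown because the run began at the start base, and Rplp0, Rpl4 and Rpl41 as abundant genes with no run beginning within 10 bases of the start.
Rpl7a, chr2:26910797-26910826, plus strand: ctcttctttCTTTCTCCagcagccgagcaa
Rps6, chr4:86857348-86857377, minus strand: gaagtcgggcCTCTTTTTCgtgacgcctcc
Rpl28, chr7:4792955-4792984, plus strand: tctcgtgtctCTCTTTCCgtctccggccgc
Rplp2, chr7:141447641-141447670, plus strand: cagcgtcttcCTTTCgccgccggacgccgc
Rpl38, chr11:114668570-114668599, plus strand: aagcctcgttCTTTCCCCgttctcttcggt
Rps27, chr3:90213629-90213658, minus strand: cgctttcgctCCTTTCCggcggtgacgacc
Rplp0, chr5:115559457-115559486, plus strand: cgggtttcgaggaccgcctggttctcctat
Rpl4, chr9:64173377-64173406, plus strand: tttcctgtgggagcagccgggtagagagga
Rpl41, chr10:128549149-128549178, minus strand: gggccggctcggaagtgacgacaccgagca
The run stood at an annotated start in 14 of the 61 genes (23%), against 3.01% of all 27025 genes with a window. Within 10 bases of the start, 39 of the 61 genes (63.9%) held a run, against 34.4% of all genes. The 69 mitochondrial ribosomal protein genes with a window had no run at the start base and 44.9% had one within 10 bases. Annotated starts can lie some bases from the start used in liver, and the absence of a run says only that these letters are not in that stretch.

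Each library held a total count between 32.94 and 36.07, in units of 1000000 reads. The tissue label was checked with 9 hepatocyte markers, such as the albumin gene Alb. They summed to 46962 to 84226 counts per 1000000 reads (CPM, scaled by the trimmed mean of M values, TMM) in UCMSC-Exos livers and 39062 to 59325 CPM in untreated HFD livers, and all 9 rose, under total-count scaling 7 of 9. Their part in the differences below was not tested. Untreated HFD 3 stood apart: its 12 pancreatic acinar markers summed to 14694 CPM with none at 0, against 8.28 to 18.43 CPM in the other 16 libraries, where 2 to 10 of the 12 were at 0, and mitochondrially encoded genes took 0.32% of its counts, against 3.19% to 6.67% elsewhere. Untreated HFD 9 stood apart as well: its 12 skeletal muscle markers summed to 13388 CPM with none at 0, against 1.05 to 3.12 CPM in the other 16 libraries, where 3 to 8 of the 12 were at 0. Values without untreated HFD 3, or without both, are given beside many of the results they touch. In bulk tissue, fewer cells of a type and less RNA per cell cannot be told apart.

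By level per length, in CPM per kilobase of deposited exon length, the highest of the 79 genes tested was Rplp1, a protein of the stalk that recruits elongation factors, at 675.5 ± 73.4 in UCMSC-Exos livers and 614.3 ± 72.2 in untreated HFD livers (SD, n = 8 and 9). Rps2, which lies by the entry of the mRNA channel, followed at 346.4 ± 34.2 and 333.3 ± 91.3 CPM per kilobase in the same order of groups. Rplp0, the base of the stalk, stood at 281.1 ± 27.1 CPM per kilobase in UCMSC-Exos livers and 239.0 ± 44.7 in untreated HFD livers. Next in the order were Rps15 of the small subunit head, Rpl4 of the exit tunnel wall and Rpl41, the shortest ribosomal protein. Rplp1 stood clear of the rest, and the next 3 genes overlapped within 1 SD of each other in untreated HFD livers. At the low end were Rpl24 (0.34 CPM per kilobase in UCMSC-Exos livers and 0.40 in untreated HFD livers), Rps10 (0.91 and 1.03), Rpl13a (4.84 and 4.56), Rpl6l (7.91 and 7.16), Rps15a (13.9 and 13.2) and Rpl21 (15.7 and 15.1), each pair in that order of groups. The order depended on the length used: with the principal transcript's length in place of the deposited exon length, an alternative added after the data were seen, Rplp0 moved from rank 3 to 14, Rps15 from 4 to 13 and Rpl4 from 5 to 12.

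Some of the low values, those of Rpl24, Rpl13a and Rps10, sit on loci that overlap other genes. A read overlapping exons of more than 1 gene was not counted. Exons of 37 of the 83 genes overlap those of another gene in GENCODE vM25, the annotation that was counted over. The overlapped part was 47% of the exon length for Rpl24, 35.4% for Rpl13a and 28.7% for Rps10, and the overlapping transcripts Gm28037, Gm45713 and RPS10-NUDT3 themselves had 0 counts in all libraries. Rps10 had 2.1 ± 0.36 CPM in UCMSC-Exos livers and 2.38 ± 0.84 CPM in untreated HFD livers, below its pseudogene Rps10-ps2 at 27.8 ± 4.03 and 26.1 ± 3.46 CPM in the same order. The levels of Rpl24, Rpl13a and Rps10 are therefore uncertain, and so are differences read from them. Of the other low genes, Rpl6l and Rps15a had 0% overlap and Rpl21 4.06%. Rpl23a, with 62.3% overlap, stood at 50.4 CPM per kilobase in UCMSC-Exos livers and 47.9 in untreated HFD livers. The part of overlap in the low levels was not tested. Rpl35, picked as the gene with the largest overlap, overlaps Wdr38 on the opposite strand over 66.2% of its exon length, and the counts did not use strand. The 299 genes named as ribosomal protein pseudogenes held 0.0249% to 0.033% of the counts in UCMSC-Exos livers and 0.0248% to 0.0346% in untreated HFD livers, and reads shared with a near-identical copy may have been lost or moved between gene and pseudogene.

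Together the 83 genes took 1.28% ± 0.156 of all counts in UCMSC-Exos livers (SD, n = 8; lowest 1.16%, median 1.2%, highest 1.52%) and 1.34% ± 0.0732 in untreated HFD livers (SD, n = 9; lowest 1.24%, median 1.32%, highest 1.43%). The groups overlapped, with UCMSC-Exos 6 and 9 above every untreated library and the other 6 UCMSC-Exos libraries at 1.2% ± 0.0434, low in the untreated range or below it. After TMM scaling the order of the means turned: the genes summed to 13556 ± 1088 CPM in UCMSC-Exos livers, from 12704 to 16124 CPM, and to 12752 ± 847 CPM in untreated HFD livers, from 11746 to 14092 CPM. The scaling factors behind this ran from 0.868 to 1.18 in UCMSC-Exos livers and from 0.973 to 1.119 in untreated HFD livers. The highest sum was that of UCMSC-Exos 6, and the UCMSC-Exos mean without it was 13189 ± 352 CPM. The highest untreated sum was that of untreated HFD 3, and the untreated mean without it was 12584 ± 729 CPM. Large-subunit counts exceeded small-subunit counts 1.46 ± 0.0136 times in UCMSC-Exos livers and 1.43 ± 0.0585 times in untreated HFD livers. Both groups lay within 1.44 to 1.49 except untreated HFD 3, at 1.28, and the untreated mean without it was 1.45 ± 0.0104. With the 5 most counted genes left out of the sums, untreated HFD 3 stood at 1.479, inside the 1.457 to 1.485 of the other untreated livers.

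**Figure D1:**
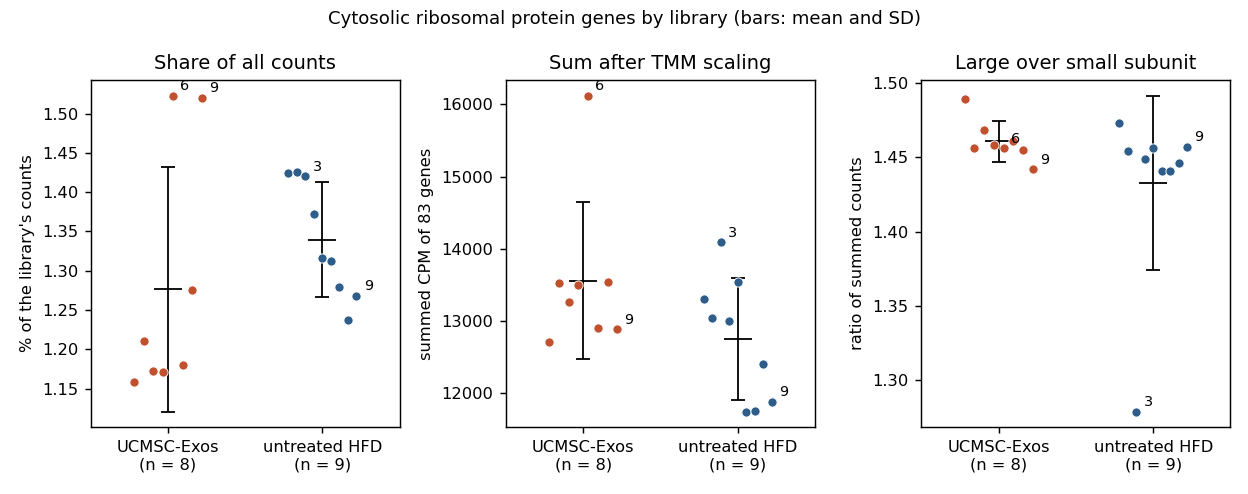
Percent of a library's counts in the 83 genes (left), their summed CPM after TMM scaling (middle) and the ratio of large-subunit to small-subunit counts (right), 1 point per library, with the mean and SD as bars; axes do not start at 0. UCMSC-Exos 6 and 9 lie near 1.52% on the left, UCMSC-Exos 6 alone is high in the middle at 16124 CPM, and untreated HFD 3 alone is low on the right at 1.28.

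Across single genes, the ribosomal protein genes differed little between the groups. Of the 83 genes, 79 passed the filter on low counts (47 large-subunit, 32 small-subunit), and 2 of these 79 (2.53%) passed the test between groups, Rpl29 and Rpl7a, both higher in UCMSC-Exos livers (edgeR quasi-likelihood test, Benjamini-Hochberg adjusted over 16238 genes, threshold 0.05). The background was much larger, since 20.2% of all genes tested passed in either direction with 9.73% higher and 10.4% lower. At an unadjusted p under 0.05 there were 9 of the 79 genes, all higher, against 35.8% of all genes tested in either direction. The fitted log2 fold change was above 0 for 64 of the 79 genes (81%), against 46.7% of all genes, with a median of 0.09 against -0.02 for all genes under TMM scaling, but under scaling by total counts the members' median was -0.08, 18 genes were above 0 and the median of all genes was -0.19. The members' median stood above that of all genes by 0.109 under TMM and by 0.106 under total counts. The sign of the members' median thus follows the scaling. A change of scaling shifts all genes nearly alike, so the distance could hardly differ between these fits. Over all alternatives it ran from 0.049 (without untreated HFD 3 and 9 and UCMSC-Exos 6 and 9) to 0.15 (no filter). No gene had groups that did not overlap in CPM, against 1.3% of all genes tested.

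Rpl29 is a small basic large-subunit protein that is also known to bind heparin. Its level was lowest 119.8, median 125.4 and highest 142.4 CPM in UCMSC-Exos livers, and lowest 73.7, median 107.6 and highest 125.3 CPM in untreated HFD livers. All 8 UCMSC-Exos livers lay above the untreated median, and untreated HFD 4 reached into their range. The means were 127.9 ± 7.48 CPM in UCMSC-Exos livers and 105.9 ± 14.8 CPM in untreated HFD livers, a log2 fold change of 0.27 (SE 0.0817, edgeR adjusted p = 0.0265). Without untreated HFD 3, its lowest library, the change was 0.22 with an adjusted p of 0.0127, and it passed in 23 of 28 alternatives. It missed the threshold without UCMSC-Exos 2 (adjusted p = 0.0504) or 7 (0.0508), with no filter (0.0553), with surrogate variables (0.12) and under total-count scaling (0.4). The gene lies at chr9:106429454-106431568 in GRCm38.

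Rpl7a, a protein of the large subunit, had lowest 237.9, median 242.5 and highest 277.3 CPM in UCMSC-Exos livers, and lowest 193.4, median 220.2 and highest 240.1 CPM in untreated HFD livers. All 8 UCMSC-Exos livers were above the untreated median, UCMSC-Exos 6 was the highest and untreated HFD 9 the lowest, and the ranges met at their ends. The log2 fold change was 0.18 (SE 0.0577, edgeR adjusted p = 0.0388) on means of 246.9 ± 12.9 CPM in UCMSC-Exos livers and 218.6 ± 14.3 CPM in untreated HFD livers. The call was marginal. It held in 9 of 28 alternatives, among them without untreated HFD 1, 3 or 5 or without UCMSC-Exos 9, and it was lost without any other single library, with adjusted p between 0.0509 (without UCMSC-Exos 8) and 0.0712 (without UCMSC-Exos 6). Rpl7a lies at chr2:26910764-26913318 in GRCm38, with the run of pyrimidines shown above 1 base before its annotated start.

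**Figure D2:**
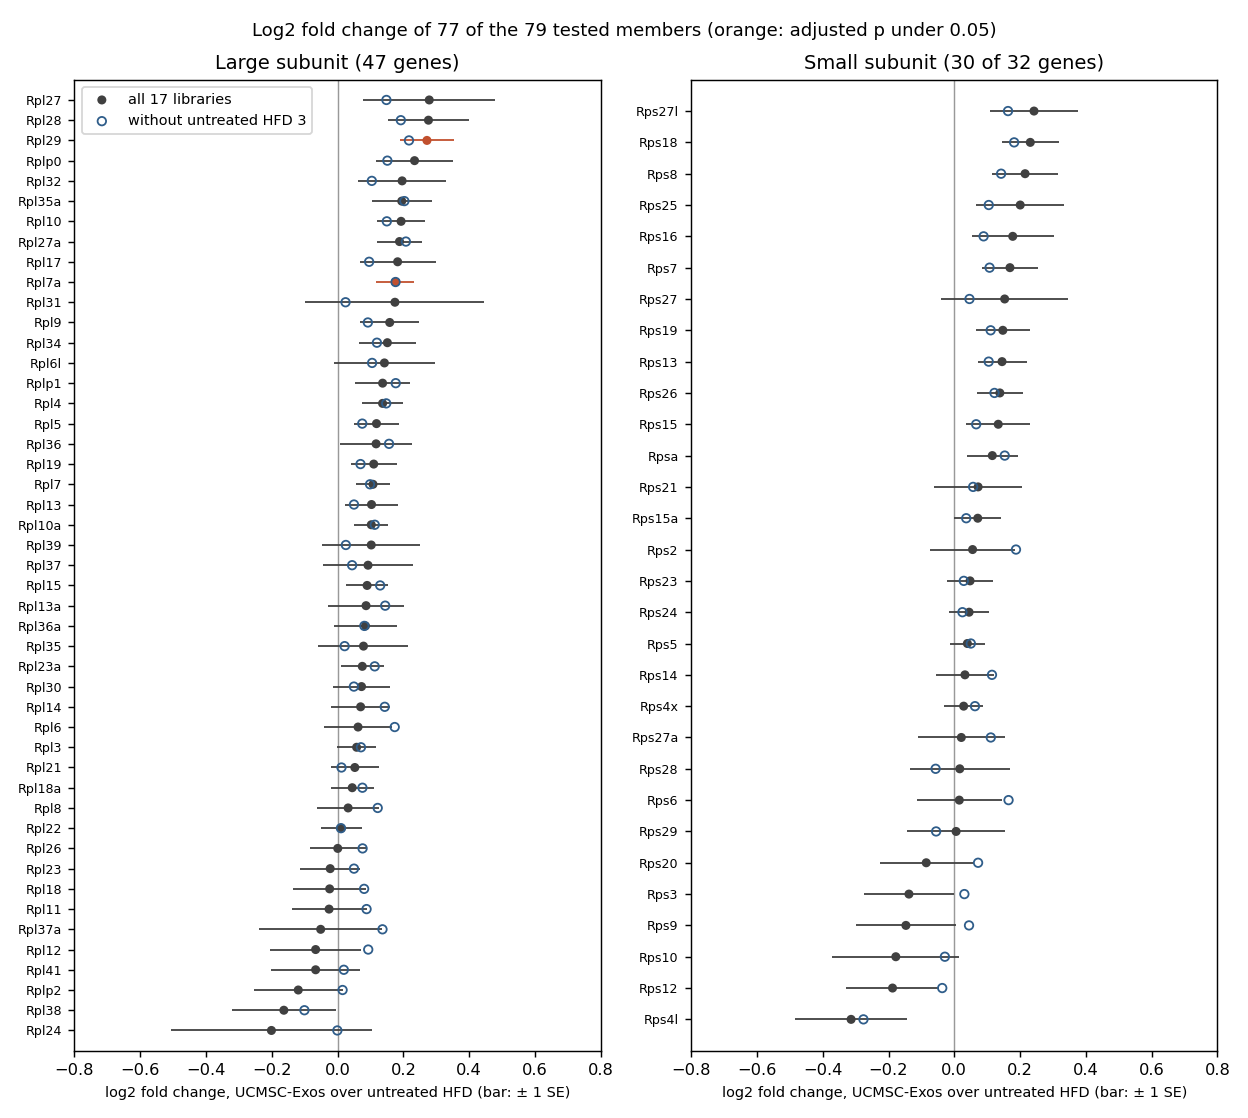
Fitted log2 fold change of 77 of the 79 genes tested, UCMSC-Exos over untreated HFD, with bars of 1 SE, for the large subunit (left) and the small subunit (right); orange marks an adjusted p under 0.05 and open circles the fit without untreated HFD 3. Most points lie between -0.2 and 0.3 under TMM scaling, Rpl29 and Rpl7a are orange, and the genes with long bars shift most in the fit without untreated HFD 3; total-count scaling lowers all points and puts 18 of the 79 above 0.

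Apart from Rpl29, the genes with the fold changes farthest from 0 did not pass. Rpl27, a large-subunit protein, stood at 0.28 (SE 0.201, adjusted p = 0.332), and its lowest, median and highest levels were 136.7, 154.8 and 187.5 CPM in UCMSC-Exos livers and 32.1, 141.6 and 157.4 CPM in untreated HFD livers. A single library, untreated HFD 3, held the low value, and without it the change was 0.15 (SE 0.0686, adjusted p = 0.118). Rpl28, also of the large subunit, stood at 0.28 (adjusted p = 0.111), with 170.0 to 247.5 CPM in UCMSC-Exos livers and 80.6 to 177.1 CPM in untreated HFD livers. Its lowest value was again that of untreated HFD 3, without which the change was 0.19 (0.0671). At the other end Rps4l stood at -0.31 (adjusted p = 0.193), with 13.1 ± 3.76 CPM in UCMSC-Exos livers and 16.3 ± 4.0 CPM in untreated HFD livers, and it was the only one of the 79 genes called lower in any alternative (-0.48, adjusted p = 0.0488, under total-count scaling). The small-subunit protein Rps12 stood at -0.19 (0.357), Rpl38, whose loss in mice alters the skeleton, at -0.16 (0.479) and Rps9, known from yeast to affect reading accuracy, at -0.15 (0.508). Rpl24, at -0.20 (0.667) and -0.0006 without untreated HFD 3, and Rps10 were also among the 6 lowest. Their levels are uncertain, as said above. Untreated HFD 3 was the highest untreated library for Rps12 and Rps9, and without it Rps12 stood at -0.04, Rpl38 at -0.10 and Rps9 above 0, at 0.04. Under total-count scaling the fitted value of each of these genes was lower than under TMM.

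The stalk that receives elongation factors gave values in different directions. Rplp0 had 466.3 ± 44.9 CPM in UCMSC-Exos livers and 396.4 ± 74.1 CPM in untreated HFD livers, a log2 fold change of 0.23 (adjusted p = 0.159), or 0.15 (0.11) without untreated HFD 3. Rplp1 had 337.1 ± 36.6 CPM in UCMSC-Exos livers and 306.5 ± 36.0 CPM in untreated HFD livers, at 0.14 (0.247). Rplp2 had 106.5 ± 18.6 CPM in UCMSC-Exos livers and 115.7 ± 32.2 CPM in untreated HFD livers, at -0.12 (0.553), and its value turned to 0.02 without untreated HFD 3. None of the 3 passed, and each overlapped between the groups.

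Near the peptidyl transferase centre, Rpl10, which joins the subunit late in its assembly, had lowest 400.6, median 435.2 and highest 449.6 CPM in UCMSC-Exos livers, and lowest 285.8, median 390.2 and highest 417.5 CPM in untreated HFD livers. All 8 UCMSC-Exos livers lay above the untreated median, yet the log2 fold change of 0.19 (SE 0.0729) had an adjusted p of 0.066. The lowest untreated value was that of untreated HFD 3, and without that library the change was 0.15 (adjusted p = 0.125). Rpl3, the other protein near that centre, had 301.8 ± 11.6 CPM in UCMSC-Exos livers and 289.9 ± 20.7 CPM in untreated HFD livers (0.06, adjusted p = 0.508). In the exit tunnel, Rpl4 stood at 0.14 (0.119), with 523.6 ± 27.6 CPM in UCMSC-Exos livers and 476.2 ± 28.0 CPM in untreated HFD livers, and Rpl39 at 0.10 (0.653). Rpl41 stood at -0.07 (0.756). Without untreated HFD 3 the value of Rpl39 was 0.03 and that of Rpl41 turned to 0.02. Across the large subunit 2 of 47 genes passed, with a median of 0.09 under TMM scaling and -0.08 under total counts.

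In the small subunit none of the 32 genes passed at the adjusted threshold, and the median was 0.06 under TMM scaling and -0.10 under total counts. Rps6, the substrate of S6 kinase, had lowest 277.5, median 301.0 and highest 331.2 CPM in UCMSC-Exos livers, and lowest 247.0, median 269.0 and highest 530.3 CPM in untreated HFD livers. All 8 UCMSC-Exos livers lay above the untreated median, but untreated HFD 3 held the highest value of all, and the log2 fold change was 0.02 (SE 0.13, adjusted p = 0.947). Without that library it was 0.16 with an adjusted p of 0.0512. Rpsa, also known as the laminin receptor precursor, stood at 0.12 (0.289), Rps2 at 0.06 (0.786) and Rps15 at 0.13 (0.338). The lowest untreated value of Rps15 and the highest of Rps2 were again those of untreated HFD 3, and without it Rps15 stood at 0.07 and Rps2 at 0.19 (0.0755).

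Several of the genes have a close relative within the family. Rpl10l, the testis copy of Rpl10, had 0 counts in all 17 libraries. Rpl39l, known from testis, had 0 counts in 13 of them and at most 10, in UCMSC-Exos 6. Rpl3l, which takes the place of Rpl3 in striated muscle, had 0 to 5 counts in UCMSC-Exos livers and 0 to 8 counts in 8 untreated livers, and 2570 counts (71.6 CPM) in untreated HFD 9, the library with skeletal muscle transcripts. Rpl3 was at its lowest in that library, at 248.5 CPM. This was not particular to Rpl3: Rpl10a (143.3 CPM), Rpl11 (188.2 CPM) and Rpl12 (128.0 CPM) were also lowest there, among others. The family's median log2 CPM there was -0.08 from the untreated median, and a link between the Rpl3 and Rpl3l values was not tested. Rpl32l had 2 to 14 counts a library, and these 4 genes did not pass the filter on low counts. Rps27l, a relative of Rps27 known as a p53 target, had 111.9 ± 18.0 CPM in UCMSC-Exos livers and 94.6 ± 20.2 CPM in untreated HFD livers (0.24, adjusted p = 0.196), while Rps27 had 65.0 ± 16.2 and 58.4 ± 16.9 CPM in the same order (0.15, 0.599), or 0.05 without untreated HFD 3. The X-linked Rps4x stood at 0.03 (0.761), with 283.3 ± 11.3 CPM in UCMSC-Exos livers and 277.8 ± 21.2 CPM in untreated HFD livers, far more than Rps4l in either group, and Rpl6l at 0.14 (0.531).

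**Figure D3:**
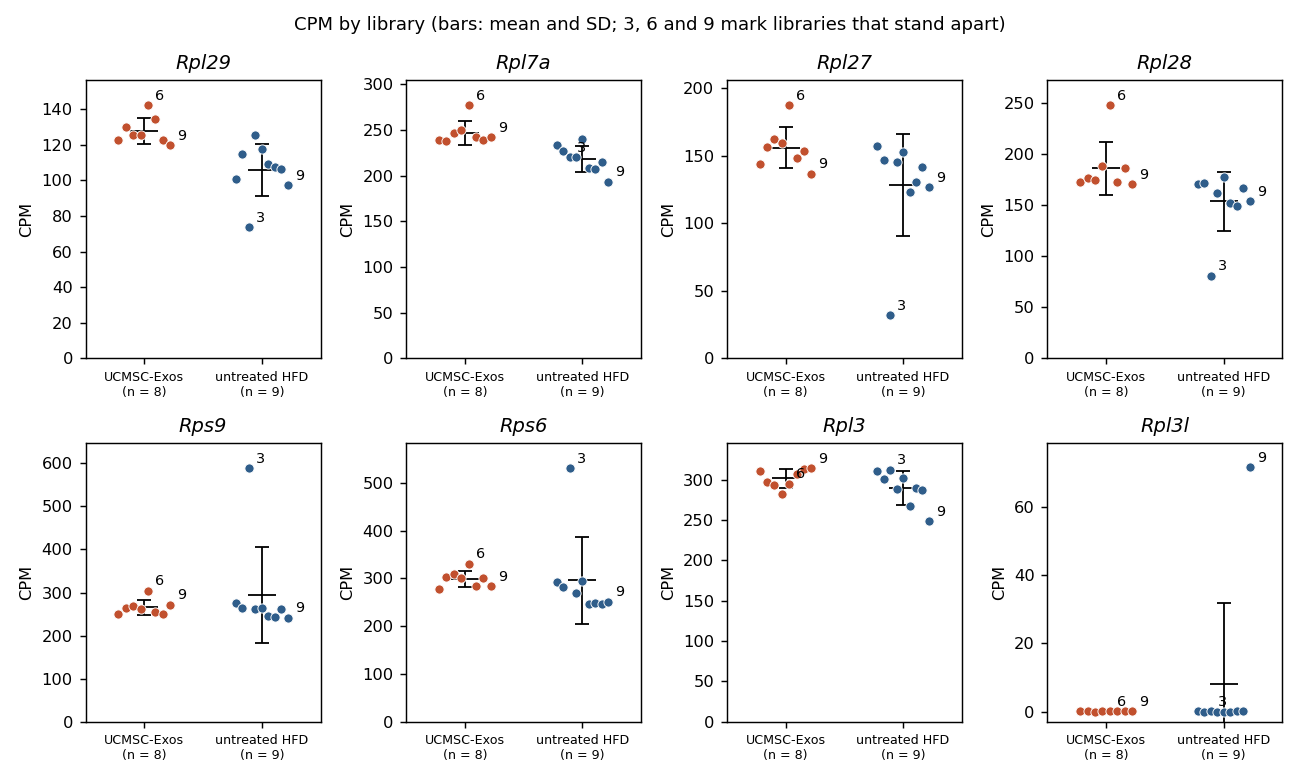
CPM of 8 of the genes in each library, with group means and SD as bars and all axes from 0 or just below; the numbers mark UCMSC-Exos 6 and 9 and untreated HFD 3 and 9. Untreated HFD 3 is far below the rest for Rpl27 and Rpl28 (32.1 and 80.6 CPM) and far above for Rps9 and Rps6 (588.1 and 530.3 CPM), and Rpl3l stands at 71.6 CPM in untreated HFD 9 and near 0 elsewhere.

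Untreated HFD 3 did not shift the median of the family but pulled its genes apart, and the family's sum in it, 14092 CPM, was the highest untreated one. Its median distance from the untreated median was 0.0 on the log2 CPM scale, while the SD of the 79 distances was 0.848, against 0.0825 to 0.201 in the other 16 libraries. In it 15 of the 79 genes (19%) lay more than 1 log2 unit from the untreated median, 6 above and 9 below, and no other library had any. Among the other genes at 5 CPM or more, 6.6% lay that far away in this library, as did 11 of 79 mitochondrial ribosomal protein genes (13.9%). The genes named in the next sentences were picked after their values were seen. Rpl31, a large-subunit protein, was the lowest, at 17.5 CPM, against 132.0 to 202.8 CPM in UCMSC-Exos livers and 135.8 to 167.7 CPM in the other 8 untreated livers. Rpl27 (-2.14) and Rps27 (-1.51) were also more than 1 unit below on the log2 scale. Rps9 lay highest among the well-counted genes at 1.17, and Rpl37a (1.09), Rpl12 (1.05) and Rps3 (1.04), a protein of the mRNA entry channel, were also more than 1 unit above. The distances showed little relation to coding length (Spearman rho 0.21 over 77 genes) or to GC content of the whole principal transcript (0.04). The same held for the number of named pseudogenes (-0.23, over 79 genes). The medians of short and long genes did differ in this library: -0.14 for the 25 shortest coding sequences and 0.10 for the 25 longest. These values are descriptions across genes that share 1 library. Pancreatic acinar transcripts and the low mitochondrial share stand beside these distances in the same library, and their part in them was not tested.

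**Figure D4:**
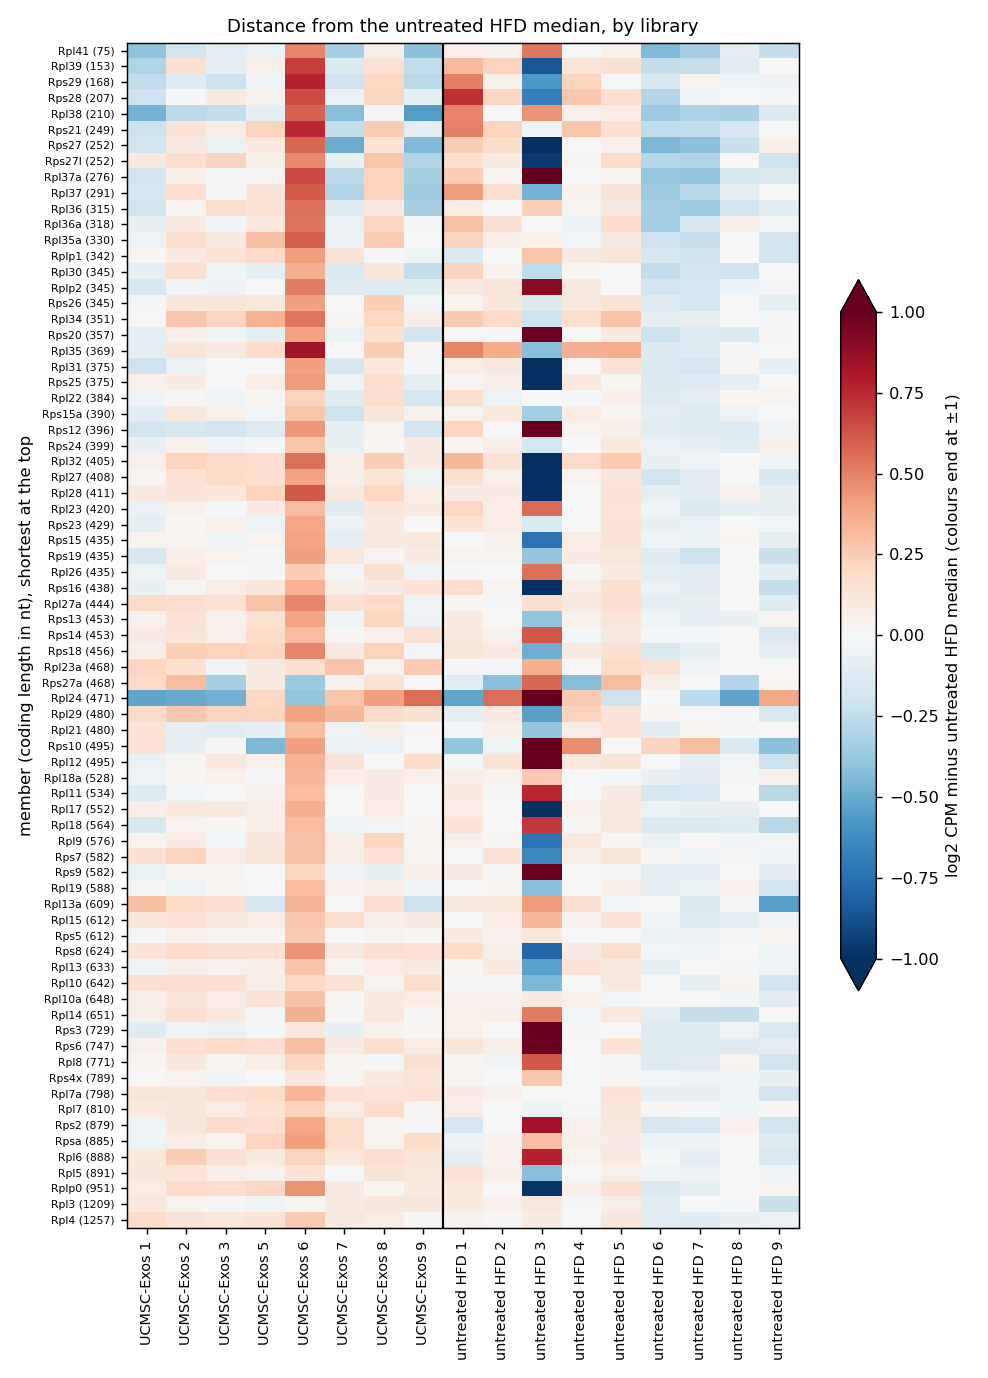
Log2 CPM of each gene minus its untreated HFD median (colour, ends at -1 and 1) for 75 of the 77 tested genes with a coding length, sorted from the shortest coding sequence (75 nt) to the longest (1257 nt), in each library. Untreated HFD 3 alternates between strong red and strong blue from row to row, while UCMSC-Exos 6 is red in nearly all rows and more so at the top.

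With untreated HFD 3 left out the errors of the family fell: the median SE of the 79 log2 fold changes was 0.0669 without it and 0.101 with it, and the median SD of log2 CPM was 0.142 between UCMSC-Exos livers, against 0.258 between untreated livers with it and 0.112 without it. The count that passed was then 4, Rpl29, Rpl7a, Rpl6 (0.17, adjusted p = 0.0216) and Rpl27a (0.21, 0.032), or 5.06% against 23.5% of all genes in that fit, and 72 of 79 were above 0 under TMM scaling. Rpl6 and Rpl27a are large-subunit proteins named here because they passed in that fit. With untreated HFD 9 left out as well, Rpl29 and Rpl6 passed (2 of 79, against 20.6% of all genes). With UCMSC-Exos 6 and 9 also left out, an alternative added after the data were seen, 5 passed (Rpl29, Rpl7a, Rpl6, Rpl27a and Rpl4), or 6.33% against 43% of all genes, and the median was 0.04 under TMM scaling. In each of these fits the share that passed was below that of all genes.

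UCMSC-Exos 6 was high across the family, with a median distance of 0.36 on the log2 scale above the untreated median, where the other UCMSC-Exos livers ranged from -0.01 to 0.10. Short genes were higher in it than long ones: the 25 genes with the shortest coding sequences (75 to 396 nt) had a median distance of 0.54, and the 25 longest (576 to 1257 nt) one of 0.29. UCMSC-Exos 9 showed the opposite, with -0.18 for the short genes and 0.08 for the long ones. Across the 77 genes with a coding length, Spearman's rho between distance and length was -0.7 in UCMSC-Exos 6, 0.65 in UCMSC-Exos 9 and 7, 0.59 in UCMSC-Exos 1, 0.6 in untreated HFD 6 and -0.45 in untreated HFD 1, as a description of genes that share a library. In all 6 of these libraries, which are named for a rho far from 0, the family leaned more than other genes of the same coding lengths. Short minus long was 0.25 for the family and 0.18 for other genes in UCMSC-Exos 6, -0.25 and -0.07 in UCMSC-Exos 9, -0.18 and -0.02 in UCMSC-Exos 7, -0.23 and -0.01 in UCMSC-Exos 1, -0.15 and -0.04 in untreated HFD 6, and 0.17 and 0.0 in untreated HFD 1. Untreated HFD 7, with a rho of 0.5, had -0.1 and -0.05. Untreated HFD 3, with a rho of only 0.21, had -0.24 and 0.002, so its family leaned too. In UCMSC-Exos 2 (-0.03 and 0.04) and UCMSC-Exos 5 (-0.02 and 0.04) the difference was nearer 0 for the family than for other genes. The same held in untreated HFD 5 (-0.0009 and 0.06). Short and long genes thus moved apart in some libraries of both groups, and what sets this lean was not tested. Between the groups the median log2 fold change was 0.08 for the short genes, with 0 of 25 passing, and 0.10 for the long genes, with 1 of 25 passing, under TMM scaling, and -0.09 and -0.06 in the same order under total counts. Without UCMSC-Exos 6 the median of all 79 genes was 0.05, with 54 above 0, and Rpl29 alone passed.

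**Figure D5:**
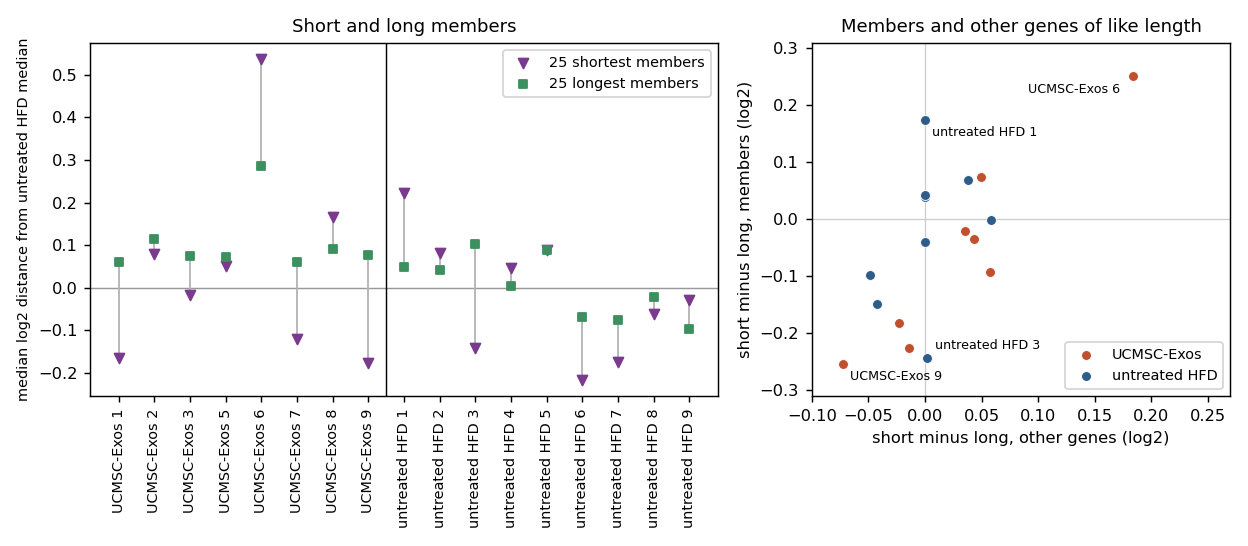
Left, median log2 distance from the untreated HFD median of the 25 shortest (triangles) and 25 longest (squares) ribosomal protein genes by coding length in each library; right, short minus long for these genes against the same difference for other genes of like coding length, 1 point per library. UCMSC-Exos 6 lies top right (0.25 and 0.18), while UCMSC-Exos 9, UCMSC-Exos 1, untreated HFD 1 and untreated HFD 3 are among the libraries that differ more for ribosomal protein genes than for other genes.

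Among the 57 tested genes with a start window, the start motif did not separate the genes by their difference between groups. The 35 tested genes with a run within 10 bases of an annotated start stood at a median of 0.08 for the log2 fold change, with 1 passing (Rpl7a), and the 22 with a window and no such run stood at 0.11, with none passing, under TMM scaling. Under total counts the medians were -0.08 and -0.05 in the same order. Without untreated HFD 3 the medians were 0.09 and 0.08 in the same order. The 22 tested genes with no window, which could not be placed, stood at 0.07 under TMM scaling, with 1 passing (Rpl29). Their median was -0.09 under total counts and 0.10 without untreated HFD 3.

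The 7 ribosomal proteins whose symbols fall outside the naming rule did not pass either. Rack1, the scaffold protein on the small subunit head, had 312.9 ± 11.8 CPM in UCMSC-Exos livers and 283.3 ± 9.67 CPM in untreated HFD livers (log2 fold change 0.14, edgeR adjusted p = 0.0555), with 8 of 8 above the untreated median. Rps3a1, the mouse gene for a small-subunit platform protein, stood at -0.12 (0.654) over all libraries and at 0.13 (0.0787) without untreated HFD 3 and 9. Fau (0.02), which encodes a ribosomal protein fused to a ubiquitin-like protein, and the relatives Rpl7l1 (0.09), Rpl36al (0.10) and Rpl22l1 (0.04) did not pass, with adjusted p between 0.34 and 0.887. Without untreated HFD 3 the log2 fold change of Rpl22l1 was 0.22 and passed (adjusted p = 0.0487), and the log2 fold change of Rpl36al was 0.44 (0.166).

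Lists of genes that serve the ribosome are given with their counts, each beside the 20.2% of all genes that passed under TMM scaling and the 22.8% that passed under total counts. Of 19 genes of translation elongation and other TOP mRNAs, 4 rose and 2 fell, with a median of 0.12, and under total counts none rose and 3 fell, with a median of -0.05. Eef2, which moves the ribosome along the mRNA, rose by 0.28 (1968 ± 130 CPM in UCMSC-Exos livers and 1626 ± 109 CPM in untreated HFD livers, adjusted p = 0.0185), and Pabpc1, the cytoplasmic poly(A)-binding protein, by 0.23 (0.0162). Eif3l, a subunit of initiation factor 3, rose by 0.25 (0.0374), and the histone chaperone Nap1l1 fell by 0.30 (0.0351). Of 27 initiation factors 1 rose and 1 fell: Eif3i at 0.26 (0.0329) and Eif6, which keeps new large subunits from joining small ones too early, at -0.41 (0.0358; 87.7 ± 11.8 CPM in UCMSC-Exos livers and 116.1 ± 31.2 CPM in untreated HFD livers). Under total-count scaling Eef2, Pabpc1, Eif3l and Eif3i no longer passed, and 3 initiation factors fell. Nap1l1, Eif3l, Eif3i and Eif6 also missed the threshold without UCMSC-Exos 2 or 3, among other single libraries.

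Of 41 ribosome assembly genes 4 fell and none rose, with a median of -0.07, and under total counts 17 fell, with a median of -0.23. Rrs1, which acts in large-subunit assembly, fell to 29.2 ± 3.11 CPM in UCMSC-Exos livers, against 39.4 ± 7.65 CPM in untreated HFD livers (-0.43, adjusted p = 0.00729). Nop56 (-0.26, 0.0388) of the box C/D particle, Nop2 (-0.27, 0.0477), an rRNA methyltransferase, and the nucleolar Mybbp1a (-0.17, 0.0303) were the other 3, and each missed the threshold without UCMSC-Exos 2 or 3, among other single libraries. Of 17 genes of RNA polymerase I and rRNA transcription Tcof1, the nucleolar protein treacle, fell by 0.53 (0.000856) and none rose, and under total counts 6 fell. Tcof1 and Rrs1 passed in all 28 alternatives. Under TMM scaling the shares of both lists that passed were below that of all genes, and under total counts they were above it.

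Of 22 genes of mTORC1, S6 kinase, LARP1 and MYC, 6 rose and none fell, and under total counts 2 rose and 4 fell. Among them were Sesn2 (0.43, adjusted p = 0.00188) and Deptor (0.61, 0.00294), which restrain mTORC1, Eif4ebp2 (0.32, 0.00763), a translational repressor that mTORC1 inactivates, and Rps6kb1 (0.26, 0.0247), the S6 kinase itself. Sesn2 and Deptor passed in all 28 alternatives. Of 13 genes of p53 and its targets 2 rose and 2 fell: Trp53inp1 (0.68, 0.00404) and Ei24 (0.27, 0.0328) rose, and Aen (-0.32, 0.0139) and Phlda3 (-1.2, 0.0304) fell. Phlda3 missed the threshold without untreated HFD 9 or UCMSC-Exos 2, 3, 5, 7 or 8, and Ei24 and Rps6kb1 without UCMSC-Exos 2 or 3, among others. Of 14 ribosome quality control genes Hbs1l, a ribosome rescue factor, rose by 0.43 (0.00338) and the stress granule protein G3bp1 fell by 0.15 (0.0243). Without untreated HFD 3 and 9, 6 elongation and other TOP genes rose and 1 fell, 3 initiation factors rose and 1 fell, 3 assembly genes fell, 5 mTORC1 genes rose and 1 fell, 1 p53 gene rose and 2 fell, and 2 quality control genes rose and 2 fell. All of these are mRNA levels and say nothing of phosphorylation or of translation.

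The mitochondrial ribosome, built from a separate set of nuclear genes, gave 6 higher and 0 lower of 79 genes tested (of 83), with a median of 0.10, but 0 higher and 5 lower under total counts, with a median of -0.07. Mrps5 (0.26, adjusted p = 0.0188), Mrps7 (0.32, 0.0275), Mrpl21 (0.22, 0.0312) and Mrps10 (0.31, 0.0443) had the smallest p. The medians of both families were close, at 0.09 for cytosolic and 0.10 for mitochondrial ribosomal protein genes under TMM scaling and -0.08 and -0.07 under total counts, and both shares that passed were below the background. The 2 families were not tested against each other.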

How the data were processed

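The authors deposited a table of counts for every gene. HISAT2 2.2.1, fastp 1.3.3, Subread 2.0.2 and build mm10 are named per the submitters' processing notes, which do not give their order. Per the file headers, featureCounts 2.1.1 counted over exons of GENCODE vM25, unstranded, without multimapping or overlapping reads, and both mates were counted, so counts are reads. Of the gene IDs 55141 matched a symbol. Counts were scaled by TMM, filtered with filterByExpr (minimum count 10) and tested with edgeR 4.0.16 (robust quasi-likelihood, R 4.3.3) over 16238 genes with Benjamini-Hochberg adjustment; SE is the log2 fold change over the root of F. CPM uses effective library sizes, log2 CPM a prior count of 2. Alternatives used limma 3.58.1, DESeq2 1.42.0 and sva 3.50.0. Coding lengths, transcript lengths and GC content came from GENCODE vM21, and exon overlaps from the vM25 exons that were counted over. The scripts were tested on simulated counts. Named were the genes that passed, the 6 highest and lowest by level per length and by fold change, relatives within the family, Rps6, Rpl41, Rplp0, Rplp1, Rplp2 and Rpsa, and up to 4 genes of smallest p in each list; a few genes that this rule or a list holds are not reported here. The genes and lists were chosen with earlier results of these data known. Replicate numbers shared by the groups did not pair the samples. The closest libraries, UCMSC-Exos 2 and 3, differed by 3.79 times sampling noise. That noise took each read as 1 observation although both mates were counted, and a second library of the same liver can also exceed it. The ratio therefore cannot tell whether any liver was measured more than once. The labels do not identify mice, so p-values measure the spread between these libraries. Total counts per library ran from 32.94 to 36.07, in units of 1000000. Counting error of a log2 fold change, with each read pair taken as 1 observation, had a median of 0.014 over the 79 genes tested, against a median fitted SE of 0.101.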

Additional observations from a re-analysis of the deposited data

Results flagged for a closer look

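In groups of this size a library was singled out where its gap to the nearest other library was large against the group's range (Dixon's test at 95%). Chance singles out about 1 in 20 groups, and here 29 of 74 were. Of these, 15 were untreated HFD 3 and 12 were UCMSC-Exos 6, so the flags largely repeat 2 libraries.

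UCMSC-Exos 6 was the highest of its group for Rpl28 (247.5 CPM), Rpl38 (56.38 CPM), Rpl39 (116.1 CPM), Rpl39l (0.3153 CPM, 10 counts), Rpl41 (363 CPM), Rpl7a (277.3 CPM), Rplp0 (566 CPM) and Rplp2 (151.6 CPM). It was also highest for Rps12 (112.8 CPM), Rps15 (211.3 CPM) and Rps9 (303.7 CPM), and for the median log2 distance of the family from the untreated median (0.3588).

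Untreated HFD 3 was the lowest of its group for Rpl27 (32.13 CPM), Rpl28 (80.59 CPM), Rplp0 (211.7 CPM), Rps15 (96.22 CPM) and the ratio of large-subunit to small-subunit counts (1.279). It was the highest for Rpl41 (373.4 CPM), Rplp2 (198.8 CPM), Rps10 (4.263 CPM), Rps12 (166.3 CPM), Rps2 (1039 CPM), Rps4x (331.6 CPM), Rps6 (530.3 CPM), Rps9 (588.1 CPM) and Rpsa (476 CPM), and for the SD of the distances of the family (0.8475). The same library holds the pancreatic acinar transcripts, whose part in these values was not tested.

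Untreated HFD 9, with skeletal muscle transcripts, was the highest for Rpl3l (71.64 CPM), and untreated HFD 1 for Rpl6l (9.661 CPM).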

How the results depend on the processing

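Of 79 tested ribosomal protein genes 2 passed. The number was 1 with upper quartile scaling, 1 with total-count scaling (Rps4l, lower), 0 with no filter (10 at an unadjusted p under 0.05), 1 with surrogate variables (Rpl6), 8 with DESeq2 (25% of all genes passed), 11 with limma voom (47.5%) and 5 without untreated HFD 3 and 9 and UCMSC-Exos 6 and 9. Leaving out 1 library gave 0 (without UCMSC-Exos 2 or 7, where 6 and 11 had an unadjusted p under 0.05) to 4 (without untreated HFD 3 or UCMSC-Exos 9). Under the replicate block 1 passed (Rpl29). The numbers did not pair the libraries: same-number correlations ran from -0.17 to 0.24 and no replicate correlated best with its own number. Over all genes 3274 passed, against 1549 with surrogate variables, 7711 with voom, 6971 without the 4 libraries and 2005 to 5823 with 1 left out. The median log2 fold change turned to -0.083 under total counts; the signs of 46 of the 79 genes turned with it, and the all-gene median was -0.19. Leaving out the 5 most counted genes moved the share of counts to 1.043% in UCMSC-Exos livers and 1.103% in untreated HFD livers, and the ratio of subunits to 1.489 in UCMSC-Exos livers and 1.473 in untreated HFD livers, with untreated HFD 3 at 1.479; fewer genes are summed there. The cause of the other changes was not tested. Total-count scaling, the 4-library alternative and transcript lengths were added after the data were seen. The fitted SE exceeded counting error for all 79 genes (medians 0.101 and 0.014), though counting error reached 0.275 for the low-count Rpl24.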

Other observations

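Marker lists of other cell types gave the tissue setting of the ribosomal protein values. Of 7 tested plasma cell genes 5 rose and none fell, and the list summed to 462.5 to 680.2 CPM in UCMSC-Exos livers and 343.1 to 495 CPM in untreated HFD livers. Most of that sum came from genes other than the immunoglobulin and J chain genes, which rose far more than the sum. Mean CPM in UCMSC-Exos and untreated HFD livers was 45.46 and 2.1 for Igha, 38.65 and 6.08 for Igkc. It was 25.89 and 1.73 for Ighg2c and 11.29 and 1.44 for Jchain in the same order. Of 5 tested erythroid genes 3 rose, with sums of 141 to 345.6 CPM in UCMSC-Exos livers and 71.5 to 199.5 CPM in untreated HFD livers. In the lymphocyte list 1 of 12 rose and 1 fell, and likewise in the macrophage list of 9. In the cholangiocyte list 1 of 8 fell, with a median log2 fold change of -1.07, and in the adipocyte list 1 of 2 tested fell, against none without untreated HFD 3 and 9, where all 5 erythroid genes rose. Neither of the muscle genes that fell over all libraries passed without untreated HFD 3 and 9. None of 13 mitochondrially encoded genes passed over all libraries, and 12 rose without untreated HFD 3 and 9. None of 3 intestinal genes and 1 acinar gene tested passed, and no testis marker was tested, which stands beside the 0 counts of Rpl10l. Of all genes, 20.2% passed over all libraries, 20.6% without untreated HFD 3 and 9 and 22.8% under total counts. Under total counts 4 plasma cell and 2 erythroid genes rose, the acinar gene fell, and the counts of the other lists in this paragraph were unchanged.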
